A study of Rattus norvegicus with 36 samples.

Results

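Vsnl1, Stc1, Gpr37, Ptprd, Edil3 and Chst8 are 6 of the 14218 genes that probe sets of the array name singly, and they were picked because their values were high in the 3 spontaneous rat mammary cancers of the study. They have 12 probe sets in all, each annotated with only 1 of these symbols. Of the 12, 11 exceeded an intensity of 125.8 on at least 3 arrays, and all 6 genes were among the 11773 genes kept for tests. The values that chose them are given below as a description, without a test. The 6 genes are tested only in comparisons that leave the spontaneous cancers out. Lists of other genes, relatives and cell type markers, are also tested between spontaneous and induced cancers.

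Tissue came from female Sprague-Dawley rats, 33 mammary cancers and 3 normal mammary tissues, 1 array each. The 3 spontaneous cancers arose in untreated rats and carried no H-ras mutation. The induced cancers without H-ras mutation numbered 19. Of these, 4 followed whole-body gamma radiation (1 Gy), 4 followed radiation and then the alkylating agent MNU (40 mg/kg), 4 followed MNU alone, 4 followed radiation and then PhIP, a mutagen of cooked meat (40 mg/kg per day), and 3 followed PhIP alone. The H-ras mutated cancers numbered 11, with 5 after radiation and MNU, 5 after MNU and 1 after PhIP. The 3 normal tissues came from untreated rats. Exposures were at 7 weeks of age, the chemical came 3 days after radiation, and every rat had a diet with 23.5% corn oil from 9 weeks. Neither the age at which tissue was taken nor whether the cancers came from separate rats is stated, so the p-values measure only the spread between these samples, which may be technical.

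The 6 genes belong to no common pathway. Stc1 and Edil3 encode secreted proteins. Stanniocalcin 1, a glycoprotein hormone first known in fish, acts locally in mammals and in human cells blocks PAPP-A, the protease that frees insulin-like growth factor from its binding protein. Edil3 encodes a matrix protein that binds integrins through an RGD motif and is related to the milk fat globule protein Mfge8. Gpr37 and Ptprd encode proteins of the cell surface, an orphan receptor related to the endothelin receptors and a receptor tyrosine phosphatase of the LAR family that works in synapse adhesion and is lost in several human cancers. Vsnl1 encodes visinin-like 1, a calcium sensor of neurons. Chst8 encodes a Golgi sulfotransferase that adds sulfate to the sugar chains of pituitary hormones such as lutropin. H-ras, whose mutation divides the induced cancers, encodes a small GTPase that drives growth signalling and is often mutated in MNU-induced rat mammary cancers.

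The RefSeq table of gene starts held 4 of the 6 genes (build GRCr8). The 250 bases before each listed start are shown because the genes were picked for being high in the same cancers, which raises the question of what their promoters have in common. All lie on the minus strand and are written 5′ to 3′ along the gene. Capitals mark the core of the GC box, GGGCGG on either strand, and the TATA box letters TATAAA on either strand.
Vsnl1, chr6:39878557-39878806: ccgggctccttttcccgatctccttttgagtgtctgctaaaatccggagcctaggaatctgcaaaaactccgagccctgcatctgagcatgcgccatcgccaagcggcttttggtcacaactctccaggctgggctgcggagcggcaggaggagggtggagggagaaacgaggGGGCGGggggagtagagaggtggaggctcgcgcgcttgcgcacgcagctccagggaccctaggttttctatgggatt
Gpr37, chr4:55126421-55126670: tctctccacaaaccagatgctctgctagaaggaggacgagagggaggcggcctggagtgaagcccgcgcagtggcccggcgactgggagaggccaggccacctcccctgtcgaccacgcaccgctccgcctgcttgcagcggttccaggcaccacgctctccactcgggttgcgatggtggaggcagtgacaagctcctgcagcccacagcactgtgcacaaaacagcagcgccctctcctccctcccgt
Ptprd, first listed start, chr5:97415499-97415748: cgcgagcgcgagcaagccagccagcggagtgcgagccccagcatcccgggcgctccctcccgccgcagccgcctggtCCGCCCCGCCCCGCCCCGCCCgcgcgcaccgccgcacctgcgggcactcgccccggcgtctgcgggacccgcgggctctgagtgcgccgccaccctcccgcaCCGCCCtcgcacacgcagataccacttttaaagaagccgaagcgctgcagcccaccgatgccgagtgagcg
Ptprd, second listed start, chr5:95483932-95484181: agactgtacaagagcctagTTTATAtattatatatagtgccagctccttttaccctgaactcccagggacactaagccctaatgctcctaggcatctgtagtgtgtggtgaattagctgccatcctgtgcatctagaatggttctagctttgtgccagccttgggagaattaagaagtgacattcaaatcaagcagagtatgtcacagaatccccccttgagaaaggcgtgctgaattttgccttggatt
Chst8, chr1:96572881-96573130: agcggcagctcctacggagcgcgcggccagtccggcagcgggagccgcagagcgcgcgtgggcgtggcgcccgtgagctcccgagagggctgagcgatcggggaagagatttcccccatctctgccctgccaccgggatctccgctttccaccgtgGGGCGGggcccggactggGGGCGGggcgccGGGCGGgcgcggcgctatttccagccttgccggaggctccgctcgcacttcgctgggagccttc

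The windows were unlike each other. That of Chst8 held 33 CG dinucleotides and that at the first start of Ptprd held 38, against a median of 5 over the 33469 windows of the table. Vsnl1 and Gpr37 had 16 each, more than 76.2% of all windows, while the second start of Ptprd had 1. The GC box core occurred once in Vsnl1, 3 times in Chst8 and 5 times at the first Ptprd start, where 4 of the matches overlap in a run, and it occurs in 30.5% of all windows. It was not found in the Gpr37 window or at the second start of Ptprd. The second start of Ptprd alone held the TATA letters, present in 12.9% of all windows. The E-box letters CANNTG (65.5% of all windows) were found in every window but that of Chst8. The CCAAT box (CCAAT, 34%), the hypoxia factor core (ACGTG, 16.6%) and the estrogen receptor half-site (AGGTCA, 14.1%) were found in none of the windows. All motifs were searched on both strands. A match is a stretch of letters, and no data of this series bear on binding.

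Deposited intensities are on a linear scale that is not known to start at 0, and arrays give no molecule count, so the number of arrays limits the precision. Levels below are these intensities, or log2(intensity + 42.8) where called log2 levels, and they are compared between samples only, never between genes. The median intensity of an array ran from 161.4 to 222.7 and the closest 2 arrays correlated by 0.984, so none was deposited as a copy of another. One array stood apart in RNA quality: MNU nonmutated cancer 4 had a 3′ to 5′ ratio of the hexokinase control probe sets of 12.3, and the next highest was 4.66. Markers matched the tissue labels, since 9 luminal epithelial genes averaged log2 levels of 11.35 to 11.98 in spontaneous cancers, 11.42 to 12.10 in the other cancers and 10.72 to 11.31 in normal tissue. The 9 adipocyte genes averaged 7.59 to 7.74 in spontaneous cancers, 7.19 to 8.12 in the other cancers and 10.57 to 11.28 in normal tissue.

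Stc1 measured 2773, 1192 and 1010.4 in spontaneous cancers 1, 2 and 3. In the other 30 cancers its lowest, median and highest intensities were 257, 548 and 1078, and in the 3 normal tissues 228, 209.5 and 218. Spontaneous cancer 1 stood well above the rest, whereas spontaneous cancer 3 lay below 1 H-ras mutated cancer, radiation plus MNU 4, which held the 1078. Edil3 measured 136, 228 and 743 in the spontaneous cancers, with 8.7, 48.5 and 191 as the lowest, median and highest of the other cancers. Here cancer 3 was the high one. Spontaneous cancer 1 lay below 3 induced cancers, namely radiation 1 at 165 and radiation plus MNU nonmutated 2 and 4 at 191 and 149. Normal tissue had 56.0, 36.2 and 93.0, and Edil3 passed 125.8 on 6 arrays in all, so most of its values are close to background.

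Gpr37 measured 2793, 2367 and 3222 in the spontaneous cancers and differed least among them, by a factor of 1.36 between highest and lowest. The other 30 cancers ran from 454 through a median of 1034 to 1645, and normal tissue had 76.3, 77.5 and 43.5. All 3 spontaneous cancers were above every other array. Ptprd measured 532, 923 and 826.5 in the spontaneous cancers. The other cancers ran from 76.6 through 194 to 384, and normal tissue had 444.5, 274 and 363. Normal tissue was below all 3 spontaneous cancers and overlapped the upper end of the other cancers.

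Vsnl1 measured 525, 2698.5 and 408 in the spontaneous cancers, a factor of 6.61 between highest and lowest and the widest spread of the 6 genes. The other cancers ran from 32.9 through 83.2 to 373, and normal tissue had 114, 60.5 and 89.6. The margin was narrow, since spontaneous cancer 3 at 408 was 1.09 times the highest other cancer, radiation plus MNU nonmutated 2. Chst8 measured 406, 623 and 440.3 in the spontaneous cancers, 64.6, 165 and 496 as lowest, median and highest of the other cancers, and 50.3, 112 and 104 in normal tissue. Spontaneous cancer 1 lay below MNU nonmutated cancer 1, which held the 496.

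**Figure D1:**
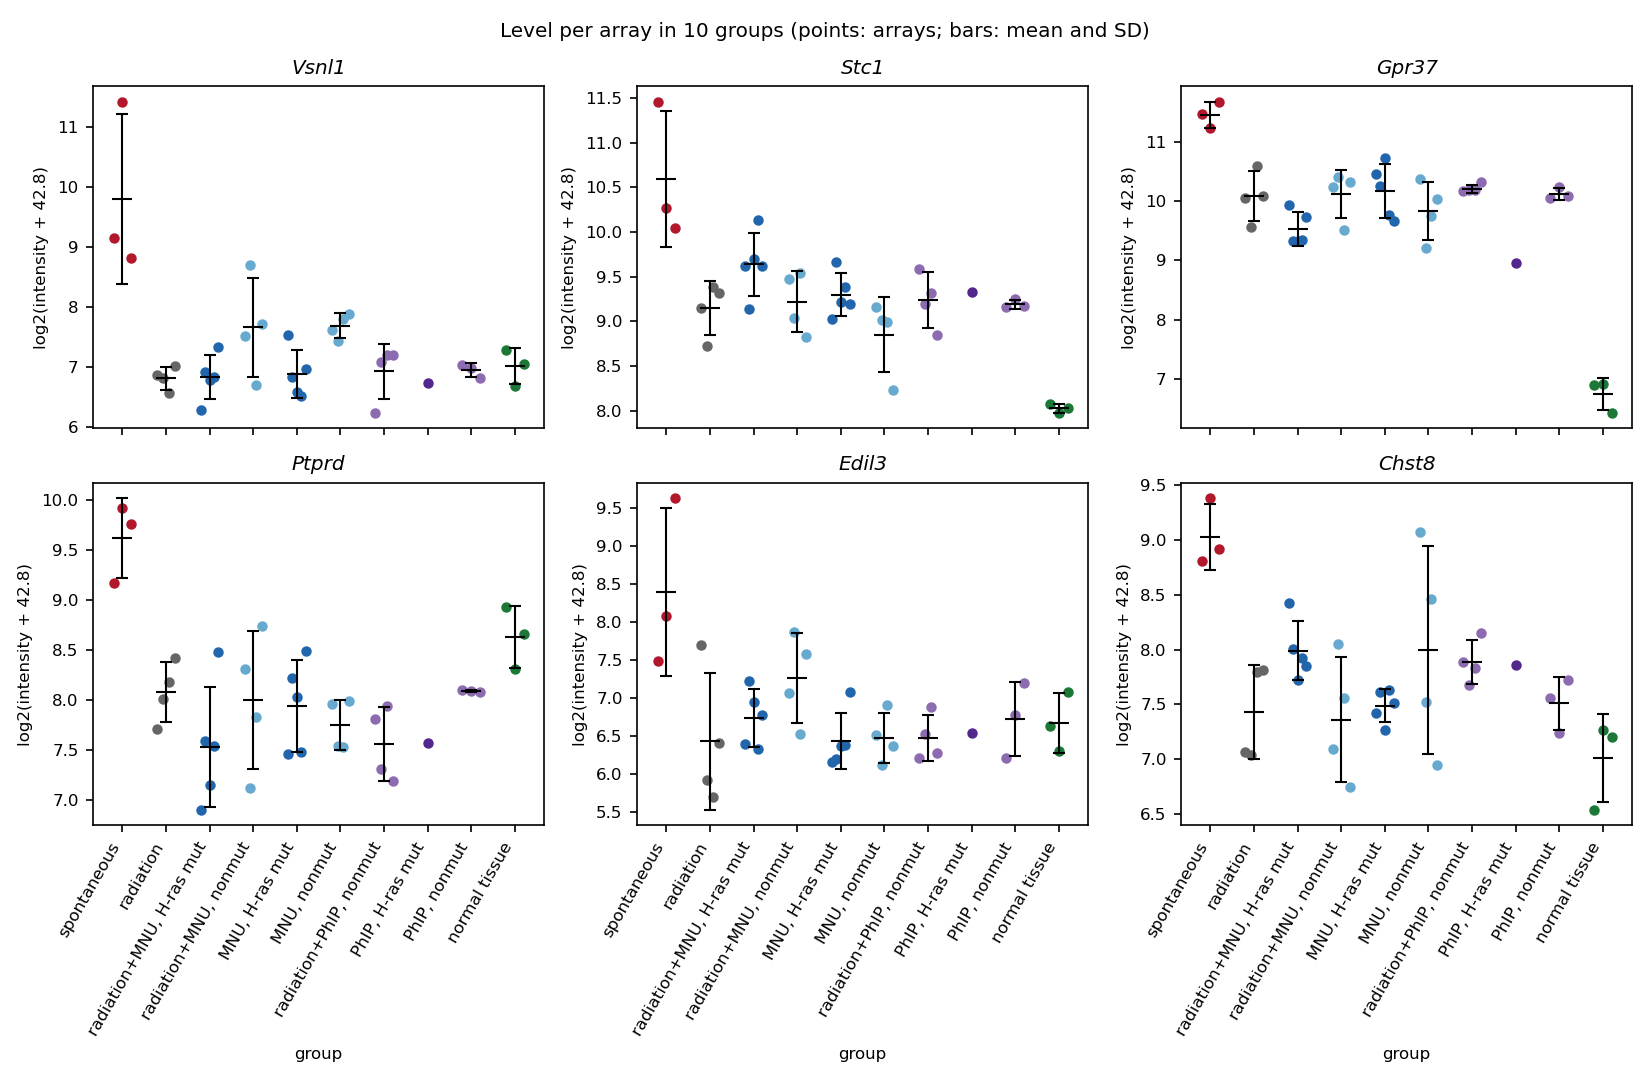
Log2 level of each gene (vertical axis, log2 of intensity + 42.8, 1 panel per gene with its own scale) on every array of the 10 groups (horizontal axis). Points are arrays and bars the mean and SD, with no bar for the single PhIP H-ras mutated cancer. By group means the spontaneous cancers lead every panel, though single arrays of other cancers overlap them for Stc1, Edil3 and Chst8. Normal tissue has the lowest mean for Gpr37, Stc1 and Chst8 and the next highest for Ptprd.

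By group means, the spontaneous cancers were first of 10 groups for each of the 6 genes, as the choice of genes provides. Below them most neighbouring group means lay close, which does not make the order flat. Gpr37 fell from 10.21 (radiation plus PhIP nonmutated) to 6.75 (normal tissue). Stc1 fell from 9.64 (radiation plus MNU H-ras mutated) to 8.03 (normal tissue). Of the 9 gaps between neighbouring group means, 8 were within the larger SD of the pair for Vsnl1 and Edil3, 7 for Stc1, Ptprd and Chst8, and 6 for Gpr37. Normal tissue was last for Stc1, Gpr37 and Chst8 and stood at rank 2 for Ptprd, 4 for Vsnl1 and 5 for Edil3. The gaps beyond the SD were mostly at the ends, for example 2.21 between Gpr37 in the PhIP H-ras mutated cancer (8.96, 1 array) and in normal tissue (6.75 ± 0.27, SD, n = 3).

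The genes did not peak in the same spontaneous cancer. Relative to the mean of the 5 induced nonmutated groups, Vsnl1 was 3.84-, 18.5- and 3.05-fold higher in spontaneous cancers 1, 2 and 3. Ptprd was 2.41-, 4.05- and 3.65-fold higher, and Chst8 was 2.25-, 3.34- and 2.43-fold higher, so these 3 genes led in cancer 2. Stc1 led in cancer 1, with 5.03-, 2.2- and 1.88-fold. Gpr37, with 2.63-, 2.24- and 3.03-fold, and Edil3, with 1.76-, 2.66- and 7.71-fold, led in cancer 3. Without spontaneous cancer 2, the mean log2 difference of Vsnl1 was 1.78 in place of 2.59. Without cancer 1, that of Stc1 was 1.03 in place of 1.46, and without cancer 3, that of Edil3 was 1.11 in place of 1.72. These folds are on the log2(intensity + 42.8) scale, which understates changes of weak signals.

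**Figure D2:**
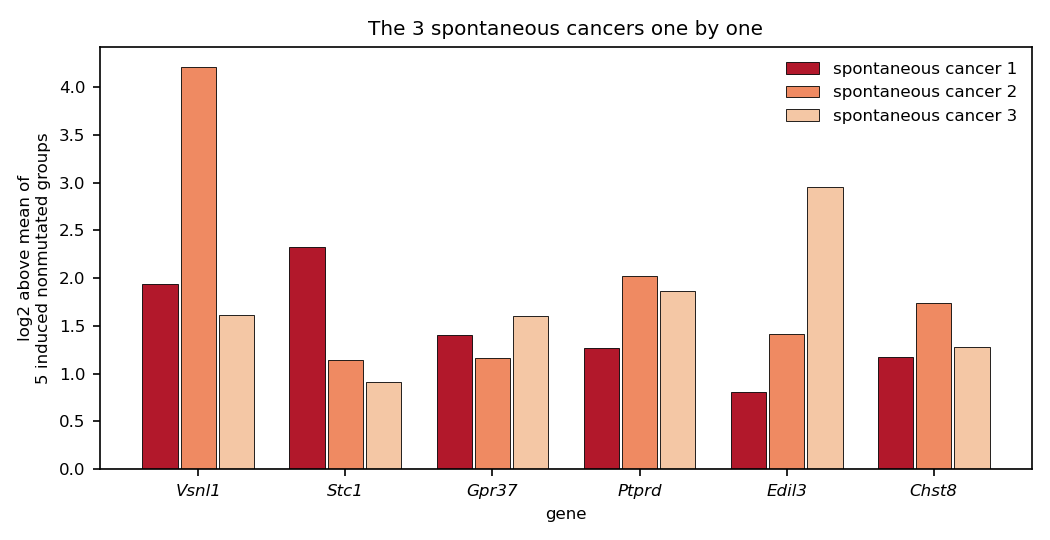
Height of each spontaneous cancer above the mean of the 5 induced nonmutated groups (vertical axis, log2 difference) for the 6 genes (horizontal axis), 1 bar per cancer, no error bar since each bar is 1 array. The tallest bar is cancer 2 for Vsnl1 at 4.21, cancer 1 for Stc1 at 2.33 and cancer 3 for Edil3 at 2.95, so no single cancer leads all genes.

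All 3 spontaneous cancers exceeded all 30 other cancers for 3 of the 6 genes (Vsnl1, Gpr37 and Ptprd), which holds for 0.068% of the 11773 genes. In the fit of spontaneous minus induced nonmutated cancers, 0.068% of the genes, 8 in number, passed an adjusted p of 0.05 (limma, Benjamini-Hochberg over 11773 genes), with 0.0595% higher and 0.00849% lower. The 6 genes are among these 8, together with Plg and Ctu2. They were chosen on this contrast, so this is a description and no test of them.

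Markers of other cell types were measured beside these levels. Of 7 skeletal muscle genes 6 were measured, and all 6 were higher in spontaneous than in induced nonmutated cancers, with a median log2 difference of 1.26 against 0.02 over all genes. None of the 6 passed the adjusted threshold, the smallest p being that of Tnnt3, fast troponin T (1.21 ± 0.49, SE; limma adjusted p = 0.547). Their mean log2 level was 9.93, 6.48 and 8.42 in spontaneous cancers 1, 2 and 3, and 6.30 to 9.40 in the other cancers. All 9 fibroblast and matrix genes were also higher (median 0.37, 0 called). They averaged 11.61 to 11.90 in spontaneous cancers and 8.45 to 11.99 in the other cancers. The 8.45 was PhIP nonmutated cancer 2 alone, which lowers the induced mean, and PhIP nonmutated cancers 3 and 4 had 11.83 and 11.95. Of 8 macrophage genes 6 were higher (median 0.22), and of 9 adipocyte genes 5 (median 0.05). Higher were 2 of 9 luminal (median −0.10), 3 of 10 basal (median −0.18) and 2 of 7 endothelial genes (median −0.03). The part of these cell types in the levels of the 6 genes was not tested. The 5 measured neuron and neuroendocrine genes of 10 averaged 7.83 to 8.17 in spontaneous cancers and 7.33 to 8.2 in the other cancers, with 0 of 5 past the threshold and Syp, synaptophysin, at 0.36 ± 0.26 (adjusted p = 0.82). The 5 measured Schwann cell genes of 8 averaged 9.26 to 9.47 in spontaneous cancers and 8.44 to 9.84 in the other cancers. Their median log2 difference was −0.23 with 2 of 5 above 0, and S100b, one of these 2, was at 0.92 ± 0.34 (adjusted p = 0.493).

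Relatives and partners of the 6 genes were measured in the same contrast. Of the 7 lists, with 43 measured genes, 0 genes were called, and with 0.068% of all genes called nothing particular to the lists is read from that. Their medians ran from −0.28 to 0.18. The 12 measured hypoxia response genes, which include targets of the factor that also raises Stc1 in human cells, had a median of −0.28 and all 12 were below 0, with Pdk1, a pyruvate dehydrogenase kinase, at −0.29 ± 0.14 (adjusted p = 0.636). In the stanniocalcin and PAPP-A list (4 of 5 measured, median 0.18), Stc2, the sister hormone, was 0.62 ± 0.28 higher (adjusted p = 0.601). In the neuronal calcium sensor family (7 of 12 measured, median 0.00), Hpcal1, a close relative of Vsnl1, was −0.38 ± 0.16 (adjusted p = 0.561). Among LAR phosphatases and partners (6 of 15, median 0.00) the sister phosphatase Ptprs was −0.04 ± 0.19, and Ppfia3, a liprin scaffold, had the smallest p (0.22 ± 0.16, adjusted p = 0.826). Of the Edil3 relative and its integrins (6 of 6, median −0.01), the integrin chain gene Itgb5 was 0.39 ± 0.14 higher (adjusted p = 0.464). The Gpr37 relatives (3 of 7, median −0.11) and the Chst8 relatives, partner enzymes and hormone substrates (5 of 12, median 0.10) held Psap, the prosaposin gene, at −0.13 ± 0.11 (adjusted p = 0.846) and B4galnt4, which builds the sugar that Chst8 sulfates, at −0.56 ± 0.40 (adjusted p = 0.812).

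The comparison with normal tissue asked which of the 6 genes also differ between cancers after a known exposure and the tissue they arise in. Gpr37 and Stc1 rose and Ptprd fell, while Vsnl1 and Edil3 did not pass the test. In bulk samples fewer cells of a type and less RNA per cell cannot be told apart. Cell type markers also differed from normal tissue. Of 9 adipocyte genes 8 were called lower in both nonmutated and mutated cancers, with medians of −3.19 and −3.22. Of 7 endothelial genes 6 were lower in nonmutated and 7 in mutated cancers, and of 8 macrophage genes 4 were lower in each. Of 9 luminal epithelial genes 4 were higher in nonmutated and 7 in mutated cancers, and 3 of 10 basal genes were higher and 1 lower in each. Of 9 fibroblast genes 2 were lower in nonmutated and 4 in mutated cancers. Of 5 Schwann cell genes 2 were lower and 2 lay above 0 uncalled in each, with a median of −0.66 in nonmutated cancers. None of the neuron or muscle genes was called. Their part in the values of the 6 genes was not tested. The induced nonmutated cancers were the comparison side of the choice of genes. Normal tissue and H-ras mutated cancers are among the 10 groups in which the spontaneous cancers came first, so the choice may bear on them too. Of all 11773 genes, 32.1% were called in this contrast, 16.9% higher and 15.2% lower, and 3 of the 6 genes were called, 2 higher and 1 lower.

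Gpr37 had a log2 level of 10.07 in the induced nonmutated cancers and 6.75 in normal tissue, a difference of 3.33 ± 0.21 (SE; limma adjusted p = 6.24e-13). All 3 normal tissues were under 125.8 for Gpr37, so the size depends on the constant added before the logarithm. It was 4.00 with a constant of 1 and 2.61 with the value at percentile 40, and called with both. All 30 induced cancers, mutated or not, were above all 3 normal tissues for Gpr37 and for Stc1, as for 4.03% of all genes. None of the 6 had all 30 induced cancers below all 3 normal tissues, as 4.3% of all genes had. Stc1 stood at 9.13 in the induced nonmutated cancers against 8.03 in normal tissue, higher by 1.10 ± 0.22 (limma adjusted p = 0.000278). Ptprd stood at 7.90 against 8.63, a difference of −0.74 ± 0.26 (limma adjusted p = 0.0334), and the groups overlapped, since radiation plus MNU nonmutated cancer 4 measured 384 and normal tissue 2 measured 274. The call of Ptprd was lost without normal tissue 1 (−0.59, adjusted p = 0.175) and without normal tissue 3 (−0.72, adjusted p = 0.111). Chst8 was 0.63 ± 0.27 higher without passing (adjusted p = 0.0734), and passed without MNU nonmutated cancer 4 (0.70, adjusted p = 0.0229). Vsnl1 differed by 0.20 ± 0.34 (adjusted p = 0.683) and Edil3 by 0.00 ± 0.34 (adjusted p = 1).

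The H-ras mutated cancers gave a similar picture against the same normal tissues, which the contrasts share. Of all genes 32.4% were called, 16.4% higher and 16% lower, and 4 of the 6 genes were called. Gpr37 was 3.11 ± 0.22 higher (9.85 in mutated cancers, 6.75 in normal tissue; limma adjusted p = 1.28e-11). Stc1 was 1.44 ± 0.23 higher (9.47 against 8.03; limma adjusted p = 2.1e-05) and Ptprd −0.90 ± 0.28 (7.73 against 8.63; limma adjusted p = 0.0146). The Ptprd call was again lost without normal tissue 1 (−0.75, adjusted p = 0.0914) or normal tissue 3 (−0.88, adjusted p = 0.0559). Chst8 was at the threshold, 0.73 ± 0.29 higher (7.74 against 7.01; limma adjusted p = 0.0499), and this call was lost in 26 of the 36 fits without 1 array and with the replicate number as a block (0.78, adjusted p = 0.0627). Vsnl1 differed by −0.15 ± 0.36 (adjusted p = 0.776) and Edil3 by −0.09 ± 0.36 (adjusted p = 0.871).

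Among the relatives, the LAR list had 3 of 6 measured genes higher than normal tissue in the nonmutated cancers and 1 lower, and 3 higher and 0 lower in the mutated ones. Ptprs went opposite to Ptprd, with 2.08 ± 0.19 in nonmutated cancers (limma adjusted p = 2.29e-09) and 2.17 ± 0.20 in mutated cancers (adjusted p = 3.23e-09). Il1rap, an interleukin receptor chain that binds Ptprd at synapses, rose by 0.97 ± 0.17 in nonmutated cancers (adjusted p = 7.67e-05), and Ppfia3 rose by 0.42 ± 0.16 (adjusted p = 0.0483). Slitrk1, a synaptic ligand of the family, was −0.43 ± 0.13 in nonmutated cancers (adjusted p = 0.0113). The hypoxia list had 5 genes higher and 1 lower in nonmutated cancers, and likewise 5 and 1 in mutated cancers. In nonmutated cancers Pgk1, a glycolytic enzyme, rose by 0.69 ± 0.18 (adjusted p = 0.00476), Ddit4, a stress-induced inhibitor of mTOR, by 1.28 ± 0.35 (adjusted p = 0.00607) and Pdk1 by 0.48 ± 0.14 (adjusted p = 0.0096), whereas Ndrg1 fell by 1.74 on the log2 scale (adjusted p = 1.96e-05).

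The other lists held 1 call or none at a time, apart from the Chst8 relatives, of which B4galnt4 rose by 1.28 ± 0.40 (adjusted p = 0.0155) and Chst10, which sulfates the HNK-1 epitope, fell by 0.38 (adjusted p = 0.0212) in nonmutated cancers and 0 of 5 were called in mutated cancers. Kcnip1, a potassium channel partner of the calcium sensor family, fell by 1.95 in the nonmutated cancers (adjusted p = 7.67e-07), the 1 call among 7. Psap fell by 0.38 in the nonmutated cancers (adjusted p = 0.0122), the 1 call among 3 Gpr37 relatives. No gene of the stanniocalcin list (0 of 4) or of the Edil3 and integrin list (0 of 6) was called.

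**Figure D3:**
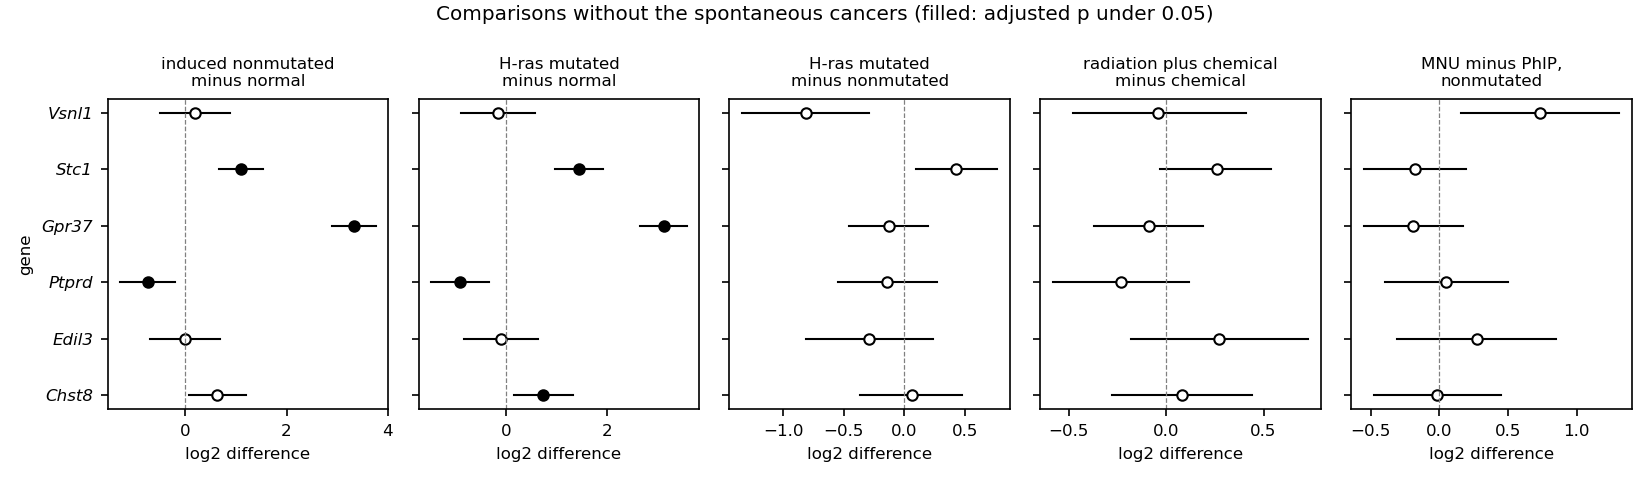
Log2 difference (horizontal axis) of the 6 genes (rows) in 5 comparisons that leave the spontaneous cancers out, with 95% confidence intervals from the fit and filled points where the adjusted p is under 0.05. Gpr37 and Stc1 lie right of 0 and Ptprd left of 0 against normal tissue, Chst8 is filled at an adjusted p of 0.0499 for H-ras mutated cancers alone, and no point is filled in the 3 panels that compare induced cancers with each other.

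The H-ras comparison asked whether the genes differ with the mutation in cancers of the same exposure, averaging the difference after MNU alone with that after radiation and MNU. Vsnl1 was lower and Stc1 higher in mutated cancers in both settings, and neither passed the adjusted threshold. Across all genes 0% were called, with 886 of 11773 (7.53%) at an unadjusted p under 0.05. Vsnl1 measured 142, 72.1, 53.1, 49.2 and 82.5 in MNU mutated cancers, against 154, 129.6, 181 and 195 in MNU nonmutated cancers. It measured 35, 77.7, 67.4, 70.8 and 118 in radiation plus MNU mutated cancers, against 140.2, 373, 61.4 and 168 in nonmutated ones. After MNU alone 4 of 5 mutated cancers were below every nonmutated one, and after radiation and MNU 1 of 5 was. The difference was −0.81 ± 0.26 (limma adjusted p = 0.415).

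Stc1 measured 481, 764, 552, 623 and 542 in MNU mutated cancers, against 529.7, 476, 464 and 257 in MNU nonmutated cancers. It measured 744, 519.5, 787, 1078 and 745 in radiation plus MNU mutated cancers, against 664, 484.5, 704 and 413.5 in nonmutated ones. In each setting 4 of 5 mutated cancers were above every nonmutated one. The difference was 0.43 ± 0.16 (limma adjusted p = 0.513), and the second Stc1 probe set gave 0.50. Without MNU nonmutated cancer 4, which held the 257 and has the highest hexokinase ratio, the difference was 0.33, the lowest of 36 fits without 1 array. Gpr37 (−0.13 ± 0.16), Ptprd (−0.14 ± 0.20), Edil3 (−0.29 ± 0.26) and Chst8 (0.06 ± 0.21) had adjusted p from 0.841 to 0.968. Their 95% intervals reached from −0.46 to 0.20 for Gpr37 and from −0.81 to 0.24 for Edil3, so these arrays leave room for differences of that size.

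Markers moved alongside in the same contrast without a call. All 8 macrophage genes were lower in mutated cancers (median −0.45) with Cd68 at −0.62 ± 0.22 (adjusted p = 0.494), and all 9 fibroblast and matrix genes were lower (median −0.42), against a median of 0.00 over all genes. All 9 luminal epithelial genes (median 0.18) and 11 of 12 hypoxia response genes (median 0.16) were higher, with 0 called. Their part in the Vsnl1 and Stc1 values was not tested.

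The interaction asked whether the H-ras difference depends on prior radiation. No gene was called (0% of 11773, 391 at an unadjusted p under 0.05). Gpr37 had a mutated minus nonmutated difference of −0.58 after radiation and MNU and 0.33 after MNU alone, an interaction of −0.91 ± 0.32 (limma adjusted p = 1). Chst8 went the other way, 0.63 after radiation and MNU and −0.51 after MNU alone, an interaction of 1.14 ± 0.41 (limma adjusted p = 1). Its values in the 5 mutated cancers were 302.5, 215, 167.5, 200.1 and 189 after radiation and MNU, against 129, 152.5, 112, 155 and 139 after MNU. In the nonmutated cancers they were 93.5, 222, 145.5 and 64.6 after radiation and MNU, against 496, 141, 309.9 and 80.5 after MNU. The second Chst8 probe set gave an interaction of 1.76 ± 0.96. Marker lists moved in the same contrast without a call. All 10 basal genes were above 0 (median 0.38), while all 9 fibroblast genes (median −0.76), all 8 macrophage genes (median −0.50) and all 7 endothelial genes (median −0.23) were below 0, against 0 over all genes. Their part in the Gpr37 and Chst8 values was not tested.

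Radiation before the chemical, averaged over the MNU mutated, MNU nonmutated and PhIP nonmutated settings, called 0% of all genes, with 1311 at an unadjusted p under 0.05. Stc1 had the smallest p of the 6, 0.26 ± 0.14 higher with radiation (9.37 with radiation, 9.11 without; limma adjusted p = 0.485). The other 5 genes differed by −0.23 to 0.27. All 8 macrophage genes were above 0 (median 0.45), and their part was not tested. Between the chemicals, MNU minus PhIP in nonmutated cancers, 0% of all genes were called and 996 had an unadjusted p under 0.05. Vsnl1 was 0.73 ± 0.28 higher after MNU (7.67 after MNU, 6.94 after PhIP; limma adjusted p = 0.527). The 4 MNU nonmutated cancers measured 154, 129.6, 181 and 195, and the 3 PhIP nonmutated cancers 88.6, 84.0 and 70.3. With radiation first, the 4 MNU cancers ran from 61.4 to 373, and the 4 PhIP cancers had 32.9, 92.9, 104 and 105. All 8 macrophage genes were also higher after MNU (median 0.58), and their part in the Vsnl1 value was not tested.

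A test for any difference among the 5 induced nonmutated groups called 0% of all genes, with 976 at an unadjusted p under 0.05. Of the 6 genes Vsnl1 had the highest F (F = 2.44, limma adjusted p = 0.627). The adjusted p of the others ran from 0.732 for Chst8 to 0.9 for Gpr37.

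Each gene's further probe sets were read on their own. The second Vsnl1 probe set measured 177.5, 635.5 and 183 in spontaneous cancers and at most 123 in the other cancers, and it passed the filter through the spontaneous cancers alone. The second and the third Stc1 probe sets had their highest value in spontaneous cancer 1, like the first. Against normal tissue the second Stc1 probe set was 0.77 ± 0.26 higher in nonmutated cancers (limma adjusted p = 0.0234), in a fit of 16370 probe sets. The third Stc1 probe set and the second Ptprd probe set passed the filter only through the spontaneous cancers, with 2 and 1 other arrays over 125.8, and are given without a test. In nonmutated cancers minus normal tissue the third Stc1 probe set differed by 0.43 and the second Ptprd probe set by −0.89. The spontaneous values of the second Ptprd probe set, 128, 194.5 and 134, overlapped those of normal tissue, 105, 63.9 and 196. The third Ptprd probe set did not pass the filter, had at most 98.2 on any array, and at 28.7, 30.1 and 78.2 was not high in the spontaneous cancers. The second Chst8 probe set measured 413, 553 and 481 in spontaneous cancers and varied far more in the other cancers, between 6.2 and 537.5, while normal tissue had 10.1, 20.8 and 7.3.

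**Figure D4:**
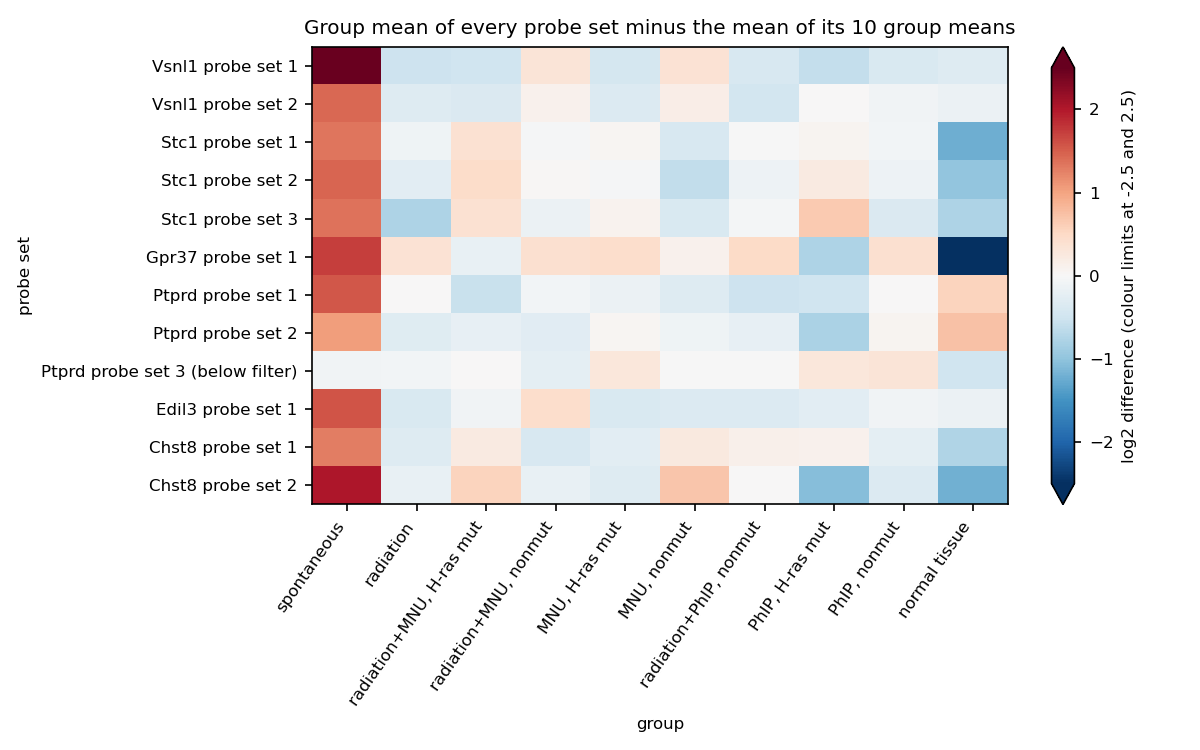
Group mean of each of the 12 probe sets (rows) in the 10 groups (columns), as the log2 difference from the mean of the probe set's 10 group means with colours limited at both ends of the scale. Red is above and blue below; the spontaneous column is red for 11 probe sets and not for the third of Ptprd, and the normal tissue column is red for 2 Ptprd probe sets and darkest blue for Gpr37.

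The 6 genes were also set against each other over the 30 cancers that are not spontaneous, 15 pairs in all. Vsnl1 and Stc1 ran against each other, with Pearson's r = −0.52 (permutation p = 0.00457, adjusted p = 0.0686) and Spearman's rho = −0.59 (permutation p = 0.00089, adjusted p = 0.0134), two-sided. The rank correlation passed after adjustment and Pearson's did not. Values were permuted over all 30 cancers regardless of group, so these p-values do not separate differences between groups from a relation within them. Without the 2 cancers farthest from the median of Vsnl1, r was −0.46. After removal of group means r was −0.44, which was not tested. Without MNU nonmutated cancer 4, which has the highest hexokinase ratio and the lowest Stc1 level, r was −0.45. Vsnl1 and Edil3 had r = 0.44 (adjusted permutation p = 0.0825) but rho = 0.25 (adjusted permutation p = 0.573). Ptprd and Chst8 had r = −0.43 (adjusted permutation p = 0.0825) and rho = −0.45 (adjusted permutation p = 0.114), and r = −0.25 without 2 cancers. The other 12 pairs had r between −0.21 and 0.30. The spontaneous cancers lie off the Vsnl1 and Stc1 relation, which the choice of both genes for high values there provides.

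**Figure D5:**
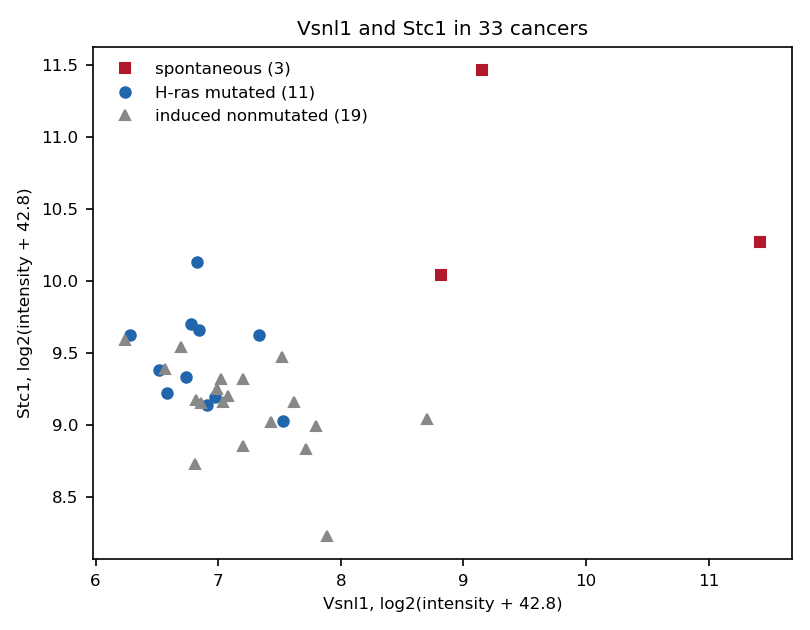
Log2 level of Stc1 (vertical axis) against Vsnl1 (horizontal axis), both log2 of intensity + 42.8, 1 point per cancer. Among the 30 other cancers the cloud falls to the right (r = −0.52), with H-ras mutated cancers mostly at upper left. The 3 spontaneous cancers lie apart at upper right, as both genes were picked for high values there.

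Genes with the most similar pattern over the 33 cancers were named for each of the 6, by Pearson's r of log2 levels, as a description of points that share arrays and groups. The likeness of Chst8 was the closest and did not rest on the spontaneous cancers. Lypd6b, Pepd (the dipeptidase prolidase) and Tmem53 had r = 0.82, 0.80 and 0.64 with Chst8 over 33 cancers and 0.75, 0.70 and 0.71 over the 30 others. For Gpr37 the first was Axin1, a scaffold of the Wnt pathway (0.67 over 33 and 0.67 over 30), followed by Cenpi (0.66 and 0.49) and Rnf227 (0.65 and 0.54). For Edil3 the first was Vwc2, a secreted BMP antagonist (0.64 and 0.64), then Fes (0.63 and 0.49) and Vsnl1 (0.63 and 0.44). Vsnl1 was followed by Ifnk (0.73 and 0.41), B4galt5 (0.72 and 0.52) and Ext1 (0.70 and 0.53). Stc1 was followed by Kcna6 (0.67 and 0.36), Coro2b (0.67 and 0.33) and Cpne5 (0.63 and 0.45). For Ptprd, Mn1 kept 0.51 of 0.65 without the spontaneous cancers, whereas Gpr37 had 0.65 and 0.23, and Vsnl1 had 0.64 and 0.03. Ranked over the 30 cancers, Kcna6 was 819 and Coro2b 1021 for Stc1, and Gpr37 1918 and Vsnl1 5895 for Ptprd. Axin1 stayed at 1 for Gpr37, and Vwc2 was 5 for Edil3. The most alike over the 30 were Fermt3 for Vsnl1 (0.69), Pura for Stc1 (0.74) and Axin1 for Gpr37. For Ptprd, Edil3 and Chst8 they were Nt5dc2 (0.62), Lrg1 (0.69) and Hlf (0.76).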

How the data were processed

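Biotin-labelled cRNA from 8 µg of total RNA was hybridised to single-colour oligonucleotide arrays, per the labels' protocols. The authors deposited, for every probe set, its intensity on each array (linear scale). The steps that summarised probes and scaled arrays are not stated in the labels. Probe sets were named from GEO's platform annotation: of 31099, 20832 had 1 symbol, 436 several and 9831 none. Intensities were transformed as log2(intensity + 42.8), which adds the value at percentile 20. Probe sets over 125.8 (percentile 40) on at least 3 arrays were kept, and 1 per symbol, that with the highest mean, gave 11773 genes. No further normalization was applied. A linear model holding the 10 group means was estimated from the 36 arrays (R 4.3.3, limma 3.58.1, 26 residual degrees of freedom), and p-values were adjusted over all genes by the Benjamini-Hochberg method at 0.05. The fit was tested on simulated data. Groups came from the labels. Alternatives were other pseudocounts, no filter, quantile normalization, the mean of probe sets, a replicate block and each array left out. The 6 genes, gene lists and comparisons were chosen with earlier results of these data known. Named genes were the 6, the 3 most alike for each, and in each list the called genes with the smallest adjusted p, or otherwise the gene with the smallest p. Of the LAR list Ptprs was also named in spontaneous minus induced cancers, beyond that rule. In the comparisons between induced cancers no relatives were named. The labels do not say whether replicate numbers pair samples. Deviations from group means correlated by 0 on average over 130 same-numbered pairs and 0.001 over 447 others.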

Additional observations from a re-analysis of the deposited data

Results flagged for a closer look

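In groups of 4 or 5 arrays, 3 of the 36 sets of values tested held an array far from the rest by Dixon's criterion, where chance flags about 1 in 20. Vsnl1 in radiation plus PhIP nonmutated cancer 1 had a log2 level of 6.24, and the nearest of the other 3 had 7.08. Gpr37 in radiation plus PhIP nonmutated cancer 4 had 10.32, with the nearest at 10.18 and the lowest at 10.17, a narrow group. Edil3 in MNU H-ras mutated cancer 5 had 7.08, with the nearest at 6.38.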

How the results depend on the processing

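With a pseudocount of 1, 5 genes in place of 8 passed in spontaneous minus induced nonmutated cancers. The replicate block gave 5 there and 7 in place of 0 for MNU minus PhIP, none of them among the 6 genes, and it ended no call of the 6 besides Chst8. Leaving out 1 array gave 0 to 4 genes for H-ras mutation, 0 to 1 for its interaction, 0 to 10 for radiation (10 without radiation plus MNU H-ras mutated 5), 0 to 6 for MNU minus PhIP, 0 to 1 for any difference among induced groups and 4 to 11 for spontaneous minus induced cancers (4 without spontaneous 2). Against normal tissue it gave 2466 to 3959 for nonmutated cancers (2466 without normal tissue 3, 2512 without normal tissue 2) and 2660 to 4070 for mutated cancers. The calls of Gpr37 and Stc1 against normal tissue held under every alternative run. Chst8 in mutated cancers minus normal tissue (adjusted p from 0.0236 to 0.276 over the alternatives) was not called with the larger pseudocount (0.48, adjusted p = 0.0724), without the filter (adjusted p = 0.0556) or with the mean of probe sets (1.03, adjusted p = 0.0785). Without normal tissue 3 and MNU nonmutated 4 together, chosen after seeing the data, the Ptprd calls were lost (−0.74, adjusted p = 0.104, and −0.88, adjusted p = 0.0555) and Chst8 in nonmutated cancers was called (0.80, adjusted p = 0.0424). Signs turned only for uncalled values near 0. For Edil3 minus normal tissue these were 0.02 (pseudocount at percentile 40), 0.04 (quantile) and 0.21 (without both arrays) in nonmutated cancers, and 0.12 in mutated ones. Chst8 gave 0.02, 0.02, 0.21 (mean of probe sets) and 0.16 for MNU minus PhIP, −0.05 and −0.12 for H-ras and −0.04 for radiation. Stc1 gave 0.03 and 0.18 and Vsnl1 0.01 for the interaction, and Ptprd −0.04 for MNU minus PhIP. With 1 array left out, the ranges crossing 0 were −0.12 to 0.24 (Chst8, H-ras), −0.19 to 0.16 (Chst8, MNU minus PhIP), −0.04 to 0.20 (Chst8, radiation), −0.27 to 0.12 and −0.18 to 0.21 (Edil3, mutated and nonmutated minus normal), −0.07 to 0.20 (Ptprd, MNU minus PhIP), −0.16 to 0.18 (Stc1, interaction), −0.35 to 0.31 and −0.15 to 0.07 (Vsnl1, interaction and radiation). The causes were not tested. Edil3 and Vsnl1 were under 125.8 on most arrays, which limits what their comparisons among induced cancers can show.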

Other observations

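The genes beside each of the 6 in the RefSeq gene table (GRCr8) were looked up after the likeness of Chst8 and Pepd had been seen, taking the 2 nearest measured protein-coding genes on each side. Of these 24 neighbours, Pepd, with 1 gene between it and Chst8, was the only one with r above 0.5 over the 30 cancers that are not spontaneous (r = 0.70, and 0.80 over all 33). Pepd had log2 levels of 11.12, 11.53 and 11.30 in spontaneous cancers 1, 2 and 3, and 10.05 to 11.41 in the other cancers, so the groups overlap. The other 3 measured neighbours of Chst8 had r = 0.14 (Lsm14a), 0.35 (Kctd15) and −0.47 (Cebpg) over the 30 cancers. Hapln1, beside Edil3, measured 7.67, 7.09 and 7.71 in the spontaneous cancers and 6.65 to 7.54 in the others. These are descriptions with no test, and whether a shared region plays a part was not tested.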
